A study of Homo sapiens with 6 samples.

Results

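Of 41 measured genes of ribosome biogenesis and RNA polymerase I, from a list of 44, only NOB1 changed in SNU-398 cells with an shRNA against SALL4. NOB1 is the endonuclease that makes the last cut in small-subunit ribosomal RNA. It fell 2.06-fold in a fit of filtered genes, with a call that most of the other fits did not give. The 44 genes were taken by name, from the subunits and cofactors of RNA polymerase I, abundant nucleolar proteins, box H/ACA ribonucleoprotein genes and assembly factors of both ribosomal subunits, out of 18404 genes named on the array. Each gene was read from its brightest probe set, a group of array probes summarised into 1 value. A value was obtained for 41 of them. PPAN lies on a probe set shared with other gene symbols, and GNL3 and EBNA1BP2 are not paired with a probe set in the annotation used here, so these 3 were not analysed here. All 41 passed the filter on dim genes described next.

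SNU-398 is an established human hepatocellular carcinoma line. Total RNA was hybridized to 6 Affymetrix arrays. Cultures had received short hairpin RNA (shRNA), scrambled as the control on 3 arrays and directed at SALL4 on the other 3; SALL4 is a zinc finger protein that regulates transcription in embryonic and fetal liver cells. Each group of 3 is labelled as biological replicates. The labels name no second SALL4 hairpin, no rescue and no time after treatment, so other effects of the hairpin and those of lower SALL4 cannot be told apart. Differences are SALL4 shRNA minus scrambled shRNA on the log2 scale, with the standard error (SE) of the limma fit and Benjamini-Hochberg adjustment over 13711 genes, those whose log2 intensity averaged 5 or more in either group; "fell", "rose" and "changed" are used only at an adjusted p under 0.05.

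Ribosomes are built mostly in the nucleolus. RNA polymerase I copies the ribosomal DNA repeats into a long precursor, with UBTF and the SL1 complex on the promoter and RRN3 bringing the polymerase to it. Small nucleolar ribonucleoproteins modify the precursor, a large particle called the small subunit processome folds and cleaves it, and separate sets of factors mature the precursors of the small (40S) and large (60S) subunits until they reach the cytoplasm. Growing and tumour cells, liver tumours included, are known for large nucleoli, and the transcription factor MYC is known to drive many of these genes through CACGTG elements, called E-boxes.

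Array medians lay between 47.85 and 51.69 intensity units, with a floor at 10. SALL4 itself was at 284, 264 and 335 with the scrambled shRNA and at 121, 119 and 117 with the SALL4 shRNA, so the hairpin's target was lower on every knockdown array. Scrambled replicate 3 and SALL4 shRNA replicate 2 lay apart from the other arrays on the second principal component (-19.3 and -23.4 against 1.77 to 16.9, 19.8% of the variance), and values without both are given for the calls and for the listed genes with array values whose difference moved by over 1.5 times. Of the 8 measured liver lineage markers 4 passed the filter (GPC3, APOA1, SERPINA1 and FOXA2). The summed intensities of the 8 were 386.3 to 432.3 on scrambled and 353.5 to 410.4 on knockdown arrays. The albumin gene ALB was near the floor (11.2 ± 1.39 and 12.1 ± 0.403, SD, n = 3 each), so this defining hepatocyte marker is all but absent here. Of 6 fibroblast and stellate markers all 6 passed the filter and DCN fell (adjusted p 0.0218 in limma, but 0.118 without the filter, 0.0563 with the replicate block and 0.0987 without the 2 arrays set apart), with summed intensities of 1286 to 1444 on scrambled and 1006 to 1368 on knockdown arrays. Summed blood markers were at 184 to 208 and 190 to 284, with 2 of 6 at the floor on all arrays, endothelial markers at 94.9 to 111 and 96.5 to 125, and cholangiocyte markers at 1099 to 1338 and 1079 to 1266. The part of these markers in the results was not tested.

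Across the 41 genes the differences were small. In limma 1 of 41 passed (2.44%), against 1.6% of all genes tested. Of all genes 1.06% fell, as NOB1 did, and 0.547% rose, as 0 of the 41 did. An unadjusted p under 0.05 was reached by 5 of the 41 (12.2%, against 16.9%), of which 3 were lower (7.32%, against 8.92%) and 2 higher (4.88%, against 8.0%). The median difference was -0.05 on the log2 scale, against 0.015 over all genes tested, and 27 of the 41 had a negative sign (65.9%, against 48.0% of all genes); centring each array on its median made this 25. The median size of the difference, without its sign, was 0.11 for the 41 genes and 0.22 over all genes tested. It was also 0.22 for 117 other ribosome biogenesis genes described further below, so the smaller size was not shared by the rest of the pathway. In 10 genes the 3 knockdown arrays did not overlap the 3 scrambled arrays (24.4%, against 22.4% of all genes). Of these 10, 9 were lower (22.0% of the 41 genes, against 11.0% of all genes) and 1 was higher (2.44%, against 11.4%). The 9 were UBTF, TAF1B, DKC1, NAF1, NOP14, UTP14A, BMS1, NOB1 and NOP16, and the 1 was RRN3.

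The fit also gives an interval for each difference, which measures only the spread between these arrays. The 95% interval of the difference, not adjusted for the number of genes, lay within 2-fold in either direction for 38 of the 41 genes and within 1.5-fold for 18 of them. The shares were 92.7% and 43.9% of the 41 genes, and 85.7% and 30.0% of all genes tested. Of the 117 other ribosome biogenesis genes they were 89.7% and 29.1%. The 3 genes whose interval reached beyond 2-fold were NOB1 (-1.52 to -0.57), NAF1 (-1.07 to -0.05) and RRN3 (0.16 to 1.10). The genome also holds pseudogenes very like RRN3, NPM1 and BMS1, and whether these probe sets tell them apart was not tested.

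**Figure D1:**
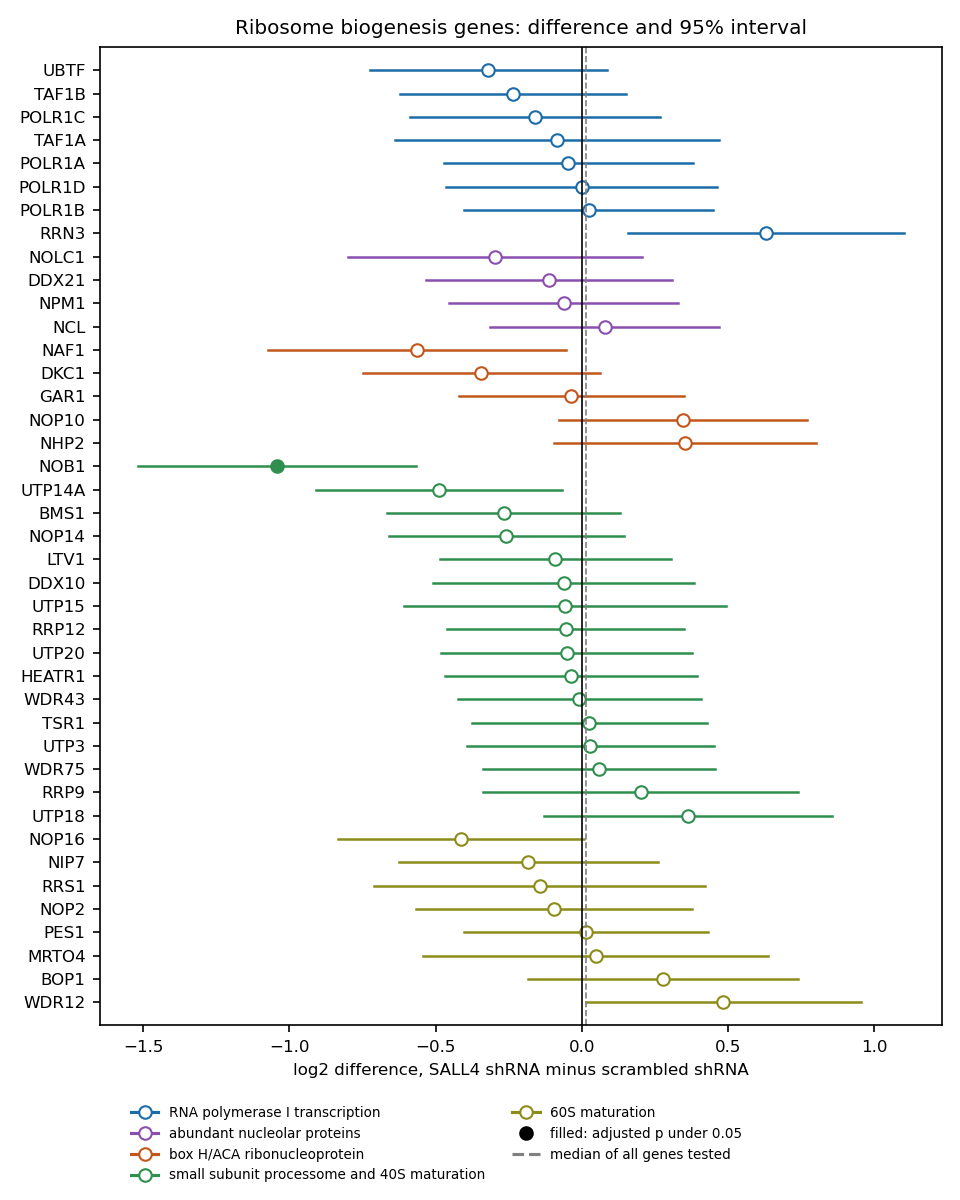
Log2 difference (SALL4 shRNA minus scrambled shRNA, x axis) for the 41 measured genes, in 5 groups by role, with 95% intervals from the limma fit; filled points passed at an adjusted p under 0.05 and the dashed line is the median of all genes tested. NOB1, at -1.04, is the 1 filled point, and most intervals span 0.

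NOB1 was at 892, 522 and 766 with the scrambled shRNA and at 358, 329 and 347 with the SALL4 shRNA. The groups did not overlap: the lowest scrambled array, replicate 2, was still above every knockdown array, and the scrambled arrays were spread far more widely (727 ± 188, SD, n = 3) than the knockdown arrays (345 ± 14.8, SD, n = 3). Limma gave a log2 difference of -1.04 ± 0.22 (SE) and an adjusted p of 0.0371. An exact permutation test (two-sided) gave 0.1, and no lower p is possible with 3 arrays a group. The call depended on the fit. In limma without a filter on dim genes, where 0 of 18404 genes passed (2864 at an unadjusted p under 0.05), NOB1 had an adjusted p of 0.141. When 1 array was left out it passed without scrambled replicate 2 (0.0374) and did not pass without scrambled replicate 1 (0.132) or 3 (0.108) or SALL4 shRNA replicate 1 (0.0806), 2 (0.0932) or 3 (0.0902). Without scrambled replicate 3 and SALL4 shRNA replicate 2 together the difference was -0.95 with an adjusted p of 0.173. NOB1 was measured by 1 probe set, so no second one on this array bears on its value.

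**Figure D2:**
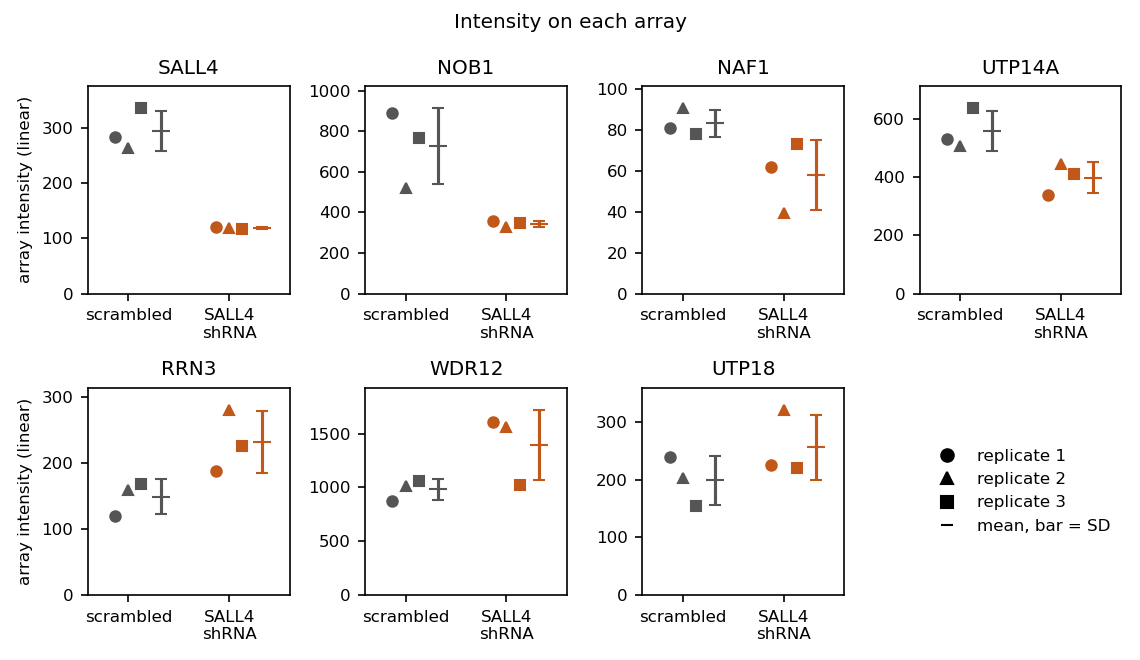
Linear array intensity (y axis, from 0) of SALL4 and of the 3 measured genes with the lowest differences (NOB1, NAF1, UTP14A) and the 3 with the highest (RRN3, WDR12, UTP18); symbols are replicates and bars are the mean ± SD of 3 arrays. The groups are apart for SALL4, NOB1, NAF1, UTP14A and RRN3 and overlap for WDR12 and UTP18.

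Among the genes of RNA polymerase I transcription RRN3 had the highest difference of all 41 measured genes, and none of the group passed. In limma 0 of these 8 passed, with 1 at an unadjusted p under 0.05 (12.5%, against 16.9% of all genes). RRN3, the initiation factor that couples the polymerase to its promoter, was at 120, 159 and 169 with the scrambled and at 187, 281 and 226 with the SALL4 shRNA. Each knockdown array was above each scrambled array, yet the difference, 0.63 ± 0.22 (SE), had a limma adjusted p of 0.163. The 4 polymerase subunits lay close to 0: the largest subunit POLR1A was at -0.05 ± 0.20, the second subunit POLR1B at 0.02 ± 0.20, and the subunits shared with RNA polymerase III, POLR1C and POLR1D, at -0.16 ± 0.20 and -0.00062 ± 0.21. UBTF, the HMG-box protein that holds ribosomal DNA open, was at 698, 641 and 841 with the scrambled and 565, 555 and 618 with the SALL4 shRNA. Its groups did not overlap, but the limma difference of -0.32 ± 0.19 did not pass (adjusted p 0.419), and it was -0.18 without the 2 arrays set apart. Of the SL1 subunits TAF1B was at -0.24 ± 0.18, also with no overlap, and TAF1A at -0.08 ± 0.25, with SALL4 shRNA replicate 3 (39.4) far below replicates 1 and 2 (79.1 and 69.4). TAF1A was at -0.29 without the 2 arrays set apart.

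The scrambled and knockdown arrays overlapped for all 4 measured genes of the abundant nucleolar proteins. Of all genes tested 22.4% had groups that did not overlap, and 4 genes are too few to set against that share. NCL, the histone chaperone and RNA-binding protein nucleolin, was at 5512, 5820 and 5814 with the scrambled shRNA and at 6210, 6581 and 5371 with the SALL4 shRNA. NPM1, the multifunctional chaperone nucleophosmin, was at 5534, 5780 and 4738 and at 4894, 5188 and 5241. In both genes the groups overlapped, and the limma differences were 0.08 ± 0.18 (SE, 95% interval -0.31 to 0.47) and -0.06 ± 0.18 (-0.45 to 0.33). Without the 2 arrays set apart they were 0.028 for NCL and -0.16 for NPM1. For NPM1 a second probe set gave -0.06 and another, dim one 0.19. DDX21, a helicase that links polymerase transcription and rRNA processing, was at -0.11 ± 0.19. NOLC1, a phosphoprotein scaffold of the nucleolus and Cajal bodies, was at -0.30 ± 0.23, and its knockdown arrays disagreed: replicate 1 was at 1144, above every scrambled array (912 to 1139), and replicates 2 and 3 were at 645 and 744. Without the 2 arrays set apart its difference was -0.14. In limma 0 of these 4 genes passed and 0 had an unadjusted p under 0.05 (16.9% of all genes did).

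Box H/ACA ribonucleoproteins convert uridines of rRNA to pseudouridine and also hold telomerase RNA, and their protein genes went different ways in value without passing. In limma 0 of 5 passed and 1 had an unadjusted p under 0.05 (20.0%, against 16.9% of all genes). NAF1, the assembly factor that GAR1 later replaces, was at 80.6, 90.4 and 77.9 with the scrambled and at 61.6, 39.2 and 73.0 with the SALL4 shRNA. The groups did not overlap, with replicate 3 of the knockdown just under the lowest scrambled array, and the difference of -0.56 ± 0.23 (SE) had a limma adjusted p of 0.25. Leaving out SALL4 shRNA replicate 2, the lowest array, gave the smallest of its differences, -0.30, and leaving out both arrays set apart gave -0.35. The pseudouridine synthase gene DKC1 was at 745, 845 and 773 and at 642, 690 and 538, again with no overlap and a difference of -0.34 ± 0.19 (adjusted p 0.378). The 2 small core proteins had the opposite sign: NHP2 was at 0.35 ± 0.21 and NOP10 at 0.35 ± 0.19, both with overlapping groups, while GAR1, another core protein gene, was at -0.04 ± 0.18. For NHP2 a second probe set gave 0.14.

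Among 16 genes of the small subunit processome and of 40S maturation NOB1 fell and 15 did not pass. This 1 limma call was 6.25% of the 16 genes, against 1.6% of all genes. Of the 16 genes 2 had an unadjusted p under 0.05 (12.5%, against 16.9% of all genes). UTP14A, a cofactor of the helicase that releases the U3 RNA, was at 531, 509 and 637 with the scrambled and at 340, 444 and 411 with the SALL4 shRNA. Its groups did not overlap and the difference of -0.49 ± 0.19 (SE) had a limma adjusted p of 0.224. BMS1, the processome's GTPase, was at 1025, 1082 and 1198 and at 814, 966 and 969, and NOP14 at 289, 306 and 268 and at 210, 249 and 265. Both were lower on every knockdown array, by 0.27 ± 0.18 and 0.26 ± 0.18 on average. The early-binding UtpA proteins WDR43 (-0.0083 ± 0.19), WDR75 (0.06 ± 0.18), UTP15 (-0.06 ± 0.25) and HEATR1 (-0.04 ± 0.20) lay close to 0. UTP18, a processome repeat protein, was at 240, 203 and 155 and at 227, 322 and 221, with overlapping groups and a difference of 0.36 ± 0.23. Without the 2 arrays set apart its difference was 0.021, and it was 0.20 without scrambled replicate 3 and 0.19 without SALL4 shRNA replicate 2. The U3-specific protein gene RRP9 was at 0.20 ± 0.25, and UTP3, UTP20, DDX10 and RRP12 lay between -0.06 and 0.03. Of the other late pre-40S factors TSR1 was at 0.03 ± 0.18 (95% interval -0.38 to 0.43) and LTV1 at -0.09 ± 0.18 (-0.49 to 0.30), against -1.52 to -0.57 for NOB1. The difference between these genes was not tested.

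For the large subunit 0 of 8 measured genes passed limma and 1 had an unadjusted p under 0.05 (12.5%, against 16.9% of all genes). WDR12, a member of the PeBoW complex that processes large-subunit rRNA, was at 875, 1012 and 1056 with the scrambled and at 1608, 1558 and 1021 with the SALL4 shRNA. Replicates 1 and 2 of the knockdown were above all scrambled arrays and replicate 3 among them, with a difference of 0.48 ± 0.22 (SE, adjusted p 0.284). Its partners PES1 and BOP1 were at 0.01 ± 0.19 and 0.28 ± 0.21, and a second, slightly dimmer probe set of BOP1 gave the opposite sign, -0.21. NOP16, a factor of early large-subunit precursors, was at 457, 540 and 388 and at 350, 316 and 365, lower on every knockdown array, with a difference of -0.41 ± 0.19 (adjusted p 0.303). NIP7, a pre-rRNA processing factor with a PUA domain, was at -0.18 ± 0.20. The rRNA methyltransferase gene NOP2 was at -0.10 ± 0.22. RRS1, which helps to load 5S RNA, was at -0.14 ± 0.26, and MRTO4, a placeholder for the ribosomal stalk, at 0.05 ± 0.27, the widest SE of the 41 genes.

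The mean of the group moved little from array to array. The mean of the 41 genes relative to the scrambled mean was -0.07, -0.04 and -0.08 on the SALL4 shRNA arrays and -0.01, 0.03 and -0.02 on the scrambled arrays. The scrambled values average 0 by construction. By this mean each knockdown array lay below each scrambled array. The medians overlapped, with SALL4 shRNA replicate 1 at -0.0265 and scrambled replicate 1 at -0.0276. The difference between the groups in this mean was not tested. On the knockdown arrays 21, 23 and 24 of the 41 genes were below their scrambled mean (51.2%, 56.1% and 58.5%, against 45.5%, 51.5% and 48.4% of all genes). On the scrambled arrays 23, 15 and 19 were (56.1%, 36.6% and 46.3%, against 49.5%, 47.4% and 52.4%), so these counts overlapped between the groups. Over all genes tested the means were 0.03, -0.05 and 0.00055 on the knockdown arrays, and by the mean the listed genes were lower than all genes on replicates 1 and 3 and not on replicate 2. By the median they were lower on all 3, at -0.03, -0.09 and -0.09 against 0.04, -0.02 and 0.01. These differences between the listed genes and all genes were not tested.

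**Figure D3:**
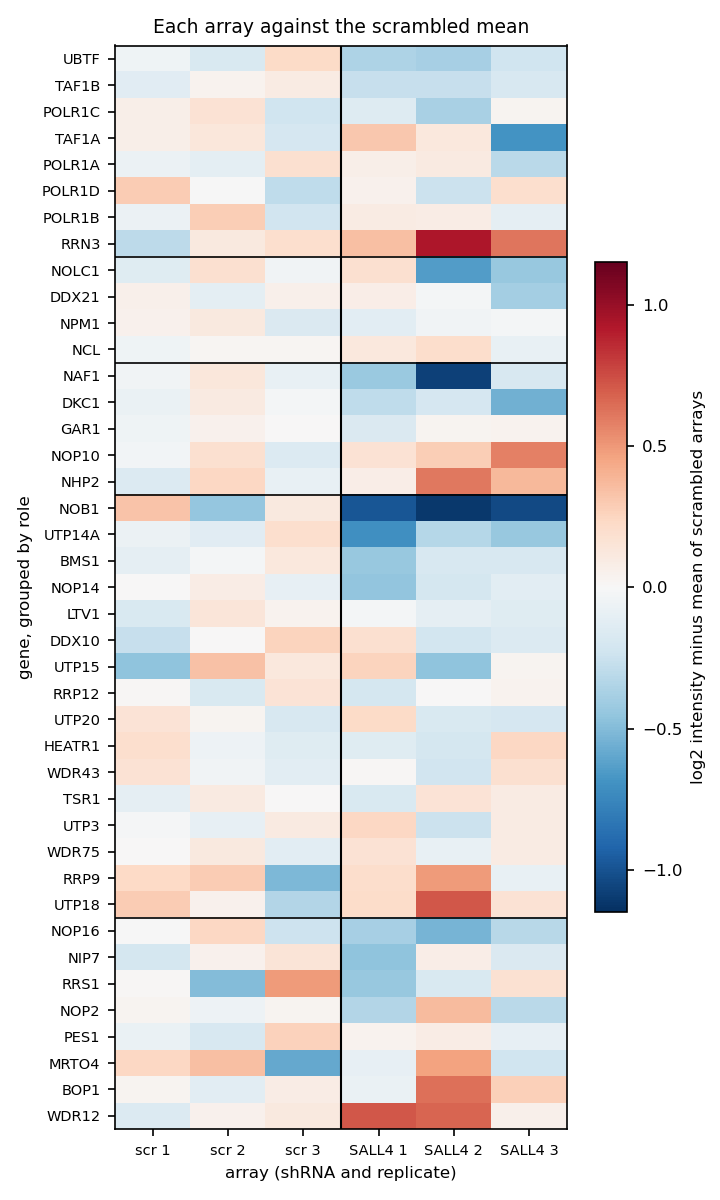
Log2 intensity of the 41 genes (rows, grouped by role) on each of the 6 arrays (columns) minus the mean of the 3 scrambled arrays; blue is lower and red higher. NOB1 is the row that is evenly dark on all 3 SALL4 shRNA arrays (-1.11 to -0.98). Other rows are dark on some of them, such as TAF1A and NAF1 on 1, WDR12 on 2, and RRN3 unevenly (0.34, 0.93 and 0.62).

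The rest of the pathway also held few calls. Another 121 genes in 4 lists (further RNA polymerase I factors, processome and 40S factors, 60S factors, and the RNA exosome that trims rRNA ends) gave 117 measured genes, all of which passed the filter. In limma 1 of 117 passed (0.855%, against 1.6% of all genes). An unadjusted p under 0.05 was reached by 17 (14.5%, against 16.9%), 10 lower (8.55%, against 8.92%) and 7 higher (5.98%, against 8.0%). The median difference of the 117 was -0.06, against 0.015 over all genes. In value 69 were lower (59.0%, against 48.0% of all genes) and 48 higher. The groups did not overlap in 25 (21.4%, against 22.4%), 17 of them lower (14.5%, against 11.0%) and 8 higher (6.84%, against 11.4%). The 1 that passed was GNL2, a nucleolar GTPase of large-subunit export, which fell from 1132, 1199 and 998 to 654, 549 and 541, a difference of -0.94 ± 0.18 (SE) with an adjusted p of 0.0308. GNL2 lost the call when any 1 array was left out (adjusted p 0.0516 to 0.109), without the 2 arrays set apart (0.113) and in limma without the filter (0.0972).

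In the other 3 lists 0 genes passed limma. Of 42 processome and 40S genes 8 had an unadjusted p under 0.05 (19.0%, against 16.9% of all genes), with UTP6 at -0.90 ± 0.25 (SE, adjusted p 0.092) and the kinase gene RIOK3 at 0.69 ± 0.20 (0.1). Of 13 further RNA polymerase I genes 1 did (7.69%), POLR2E, a subunit shared by the nuclear polymerases, at 0.76 ± 0.23 (0.117), and the SL1 subunit gene TAF1C was at -0.46 ± 0.23. Of 13 exosome genes 2 did (15.4%), EXOSC10, its nuclear nuclease, at -0.45 ± 0.18 and EXOSC2 at -0.48 ± 0.20. With trend and robust settings limma called 500 of all 13711 genes, 3 of the 117 and 1 of the 41, NOB1 (adjusted p 0.00996). The 3 were GNL2 (0.00569), RIOK3 (0.0423) and RRP15, a 60S factor named here after its values were seen. RRP15 was at 792, 756 and 569 with the scrambled and at 406, 267 and 457 with the SALL4 shRNA, a difference of -0.93 ± 0.24 (SE) with an adjusted p of 0.0258 in that limma fit and 0.0696 in the one used throughout.

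**Figure D4:**
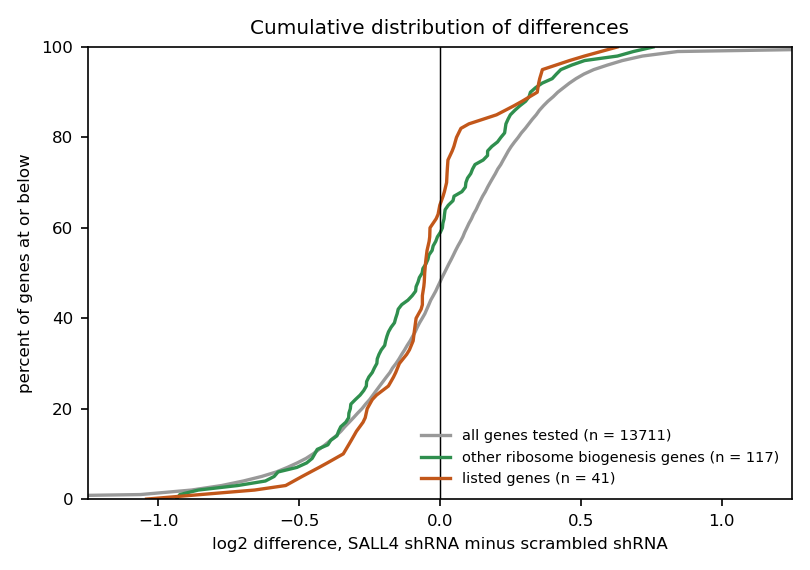
Percent of genes (y axis) at or below a log2 difference (x axis) for the 41 listed genes, the 117 other ribosome biogenesis genes and all 13711 genes tested; the curve of all genes runs past the axis at both ends. The curve of the listed genes is steepest near 0, with quartiles at -0.18 and 0.03 against -0.21 and 0.23 for all genes. The quartiles of the other ribosome biogenesis genes are at -0.26 and 0.15.

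The promoters of these genes were searched for the E-box. RefSeq start-site windows of the GRCh38.p14 build, from 250 bases before to 50 after a gene's start, matched 39 of the 44 genes. The E-box CACGTG, which reads the same on both strands, occurred in at least 1 window of 15 of these 39 genes (38.5%), against 10.9% of 15843 protein-coding genes with a window, and was not found in the windows of the other 24. In 14 of the 39 (35.9%) it began within 50 bases of a start, against 4.4% of the protein-coding genes. The median GC content was close, 63.3% of bases in windows of the listed genes and 62.3% in those of protein-coding genes. A match is a description of the letters, not of binding.
The 4 sequences below hold the 100 bases before the start and the first 25 transcribed bases. They show NOB1, which fell, beside the 3 measured genes with the E-box nearest to the start in a window that no other gene overlaps; the E-box is in capitals, and the window of NOB1 holds none.
NOB1: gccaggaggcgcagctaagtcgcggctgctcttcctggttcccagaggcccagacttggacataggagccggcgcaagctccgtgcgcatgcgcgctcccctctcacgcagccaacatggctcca
WDR43: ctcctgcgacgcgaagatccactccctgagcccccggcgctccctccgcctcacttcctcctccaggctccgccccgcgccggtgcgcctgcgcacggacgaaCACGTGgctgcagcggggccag
RRP9: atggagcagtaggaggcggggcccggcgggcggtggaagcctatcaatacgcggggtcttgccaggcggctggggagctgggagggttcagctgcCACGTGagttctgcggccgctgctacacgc
UTP20: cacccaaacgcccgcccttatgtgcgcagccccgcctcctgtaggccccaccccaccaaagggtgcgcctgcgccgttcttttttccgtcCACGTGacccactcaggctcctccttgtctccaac
They lie at chr16:69754902-69755026 (NOB1, minus strand), chr2:28894567-28894691 (WDR43, plus strand), chr3:51941880-51942004 (RRP9, minus strand) and chr12:101280005-101280129 (UTP20, plus strand).

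Genes with and without the E-box had similar medians. The 13 measured genes with an E-box had a median difference of -0.04, 8 of them lower and 5 higher, and the 23 with a window and no E-box had a median of -0.06, 15 lower and 8 higher. In WDR43 the E-box began 4 bases into the transcript, in RRP9 at base -5 and in UTP20 at base -10, and the 3 genes were at -0.0083, 0.20 and -0.05. MYC, which is known to bind this element, was at 575, 496 and 623 with the scrambled and at 282, 455 and 498 with the SALL4 shRNA. Its highest knockdown array was just above the lowest scrambled one, and the limma difference of -0.49 ± 0.23 (SE) had an adjusted p of 0.313.

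Some of these genes carry small nucleolar RNAs in their introns. SNORA75, SNORD20 and SNORD82 lie inside NCL, SNORD53 inside WDR43 and SNORD105 inside PPAN. In limma 0 of the 3 that passed the filter changed (1.6% of all genes did). An unadjusted p under 0.05 was reached by 1 of the 3 (16.9% of all genes did). SNORD82 was at 603, 450 and 360 and at 588, 221 and 503, a difference of -0.19 ± 0.33 (SE), SNORA75 was at 0.31 ± 0.31, and SNORD20 and SNORD105 were near the floor. SNORD53 was at 423, 48.8 and 72.8 with the scrambled and at 25.1, 42.1 and 64.0 with the SALL4 shRNA. Scrambled replicate 1 stood far above the other 5 arrays, and the difference of -1.49 ± 0.62 did not pass (adjusted p 0.25), and its host WDR43 was at -0.0083.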

How the data were processed

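The authors deposited 1 table of array intensity values for 32319 probe sets on 6 arrays, linear with a floor of 10; RMA is named in the submitters' processing notes, with no version, and no source used here gives the later steps. The design had assumed log2 values, so log2 of each intensity was taken. Probe sets with 1 gene symbol (19158; 1388 had several and 11773 were not listed) were named through the platform annotation, with symbols updated by Entrez identifier for 19128, and the probe set with the highest mean log2 intensity was kept for each of 18404 genes. The contrast was tested in R 4.3.3 with lmFit and eBayes of limma 3.58.1, on the 13711 genes whose log2 intensity averaged 5 or more in either group. The filter uses group means, so a gene bright in 1 group can enter; all 41 measured members also passed in the alternative that filters on the mean of all 6 arrays. Tested on simulated data of 13663 genes, this fit found 56% of changes of 1 log2 unit and 96% of changes of 2. Of its 164 calls there 12 were false. Whether these figures hold for the 6 arrays was not tested. The 44 members, the 4 further lists and the filtered fit were chosen with earlier results of these data known. Members are named by value throughout; arrays are given singly for genes that passed, for the 3 highest and 3 lowest differences, and for others where the groups are compared. From each further list up to 4 genes that passed are named, or the 2 with the lowest unadjusted p. Nothing says how far the replicate cultures were separate, so p-values measure the spread between these arrays, whose number limits the precision. The alternatives were other filters, scalings, variance models, probe set rules, a replicate block and fits without arrays.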

Additional observations from a re-analysis of the deposited data

How the results depend on the processing

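The count of 220 genes over the whole array was 0 with no filter on dim genes, 40 when genes at the floor on all arrays were left out, 500 with trend and robust settings, 41 with the replicate number as a block, 39 to 103 without 1 array, and 15 without scrambled replicate 3 and SALL4 shRNA replicate 2 together. The count of 1 among the listed genes (NOB1) was 0 with no filter, without the genes at the floor, with the replicate block and without the 2 arrays, and 0 to 1 without 1 array; it was 1 with quantile normalization, median centring, a filter on the overall mean, trend and robust settings and the mean of probe sets. The count of 1 among the other pathway genes (GNL2) was 0 with no filter, without the genes at the floor, with the replicate block, without the 2 arrays and without any 1 array, and 3 with trend and robust settings. The median difference of the listed genes stayed between -0.08 and -0.03 in all the fits named. SALL4 had a difference of -1.30 with an adjusted p of 0.0946 with no filter and -1.20 with 0.0724 without the 2 arrays. Fewer arrays leave fewer degrees of freedom; otherwise the cause was not tested.

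The replicate numbers did not pair the arrays: same-numbered arrays had correlations of 0.0029, -0.083 and -0.039 of their deviations from the group means, so the block (NOB1 adjusted p 0.0681) is given only as an alternative fit. Genes near 0 changed sign without passing in any fit. Without the 2 arrays these were POLR1B (-0.11), WDR43 (0.037), RRP9 (-0.20), UTP15 (0.21), TSR1 (-0.038), DDX10 (0.14), RRS1 (0.11) and MRTO4 (-0.45); with median centring POLR1D (0.019) and WDR43 (0.012); and with the mean of probe sets NPM1 (0.021). The 2 arrays also moved NHP2 (0.18) and BOP1 (0.14). Without 1 array the log2 difference of these genes ranged over 0: POLR1A -0.12 to 0.085, POLR1B -0.085 to 0.17, POLR1D -0.15 to 0.15, TAF1A -0.28 to 0.22, DDX21 -0.20 to 0.026, GAR1 -0.071 to 0.032, WDR43 -0.10 to 0.10, WDR75 -0.0038 to 0.13, RRP9 -0.059 to 0.35, RRP12 -0.14 to 0.026, UTP3 -0.077 to 0.17, UTP15 -0.29 to 0.15, UTP20 -0.18 to 0.027, HEATR1 -0.17 to 0.060, TSR1 -0.040 to 0.12, DDX10 -0.20 to 0.068, PES1 -0.079 to 0.15, RRS1 -0.39 to 0.10, NOP2 -0.32 to 0.026 and MRTO4 -0.25 to 0.22.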
